A study of Mus musculus with 20 samples.

Results

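The comparison set RNA labelled as isolated colonic macrophages against RNA labelled as whole duodenum from the same wild type mice. The names macrophage arrays and small intestine arrays below follow these labels, which the levels of marker genes did not bear out in every respect. Its members were the 6 wild type arrays of these tissues, 3 per tissue, of 20 arrays in the series, and they were chosen by their labels. The 3 mice were female, on a C57BL/6 background, kept free of specific pathogens and fed autoclaved chow. Animal 1 was 8 weeks old and animals 2 and 3 were 6 weeks old. Each animal gave both tissues, so every difference below is taken within an animal. The same tissues of 3 other C57BL/6 animals, labelled Irgm1-/- for the gene of an interferon-induced GTPase, served as a second set. Of these, 1 was 8 weeks old and 2 were 6 weeks old, and 2 were male and 1 female, so sex differed between the genotypes as well, and its part was not tested. Irgm1 itself was not lower there. Its level (log2 signal minus the 75th percentile of the array) was 0.50, 0.95 and 0.47 on their macrophage arrays against -0.69, 0.24 and -0.26 in wild type, and 2.09, 2.16 and 2.24 on their small intestine arrays, above every wild type one. Whether the probe lies in the deleted part was not tested. For the way the macrophages were isolated, the labels give nothing.

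Macrophages of the colon lie beneath the epithelium, are replaced in large part from blood monocytes, depend on the receptor encoded by Csf1r, and take up dead cells and microbes. The duodenum is lined by absorptive enterocytes, whose brush border digests and takes up food, with goblet, Paneth and enteroendocrine cells between them. A whole piece of duodenum also holds muscle, stroma, nerves and its own macrophages. In bulk RNA such as this, fewer cells of a type and less RNA per cell cannot be told apart.

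The sequences shown first are stretches of array probes, because probes of unrelated genes among the largest differences share letters. Of the 20 named genes with the largest differences toward the macrophages, 7 were read by a probe that holds a CA repeat or the letters AACACAC. Parts of 5 of these 60-base probes follow, as deposited, with those letters in capitals.
Has2, probe bases 8 to 37: gaaacaAACACACCCtgacaataaatgaaa
Septin12, probe bases 2 to 31: cAACACACCCtagagcatctatgtgaacct
Sox1ot, probe bases 6 to 35: taaaAACACACCCcgggcttgctggaatac
Nav2, probe bases 21 to 50: acaaacaaacaaAACACACaaatggggtgg
Fam219aos, probe bases 6 to 35: agctaCACACACAccacttttcccgaaata
Over all 39426 probes with a value in both tissues, the median log2 difference (macrophages minus small intestine) was 0.90. It was 6.68 over the 38 probes that hold ACACACCC, 3.87 over the 201 that hold AACACAC, 4.05 over the 168 that hold CACACACA and 4.37 over the 271 that hold TGTGTGTG. Probes with an AGG repeat (AGGAGGAG, 146 probes) had a median of 4.20, and those with a CAG repeat (CAGCAGCAG, 36 probes) one of 4.82. These letters were picked from the probes with the largest differences in the wild type animals, so the medians are a description. In the animals labelled Irgm1-/-, whose arrays were not used to pick them, the medians were 6.60, 3.94, 4.77 and 4.04 in the same order, 4.58 and 4.75 for the AGG and CAG repeats, and 1.32 over all probes.

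The difference also ran with the share of G and C in the probe. The shares here take in every probe with a value, well above background or not, and rest on the difference alone without a test. Among the 10130 probes with 15% to 35% GC, 14.6% were at least 4-fold higher on the macrophage arrays and 22.3% at least 4-fold higher on the small intestine arrays. Among the 7519 probes with at least 46.7% GC the shares were 51.0% and 7.73%. Whether the letters or the GC content of the probes have a part in the differences of single genes was not tested.

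**Figure D1:**
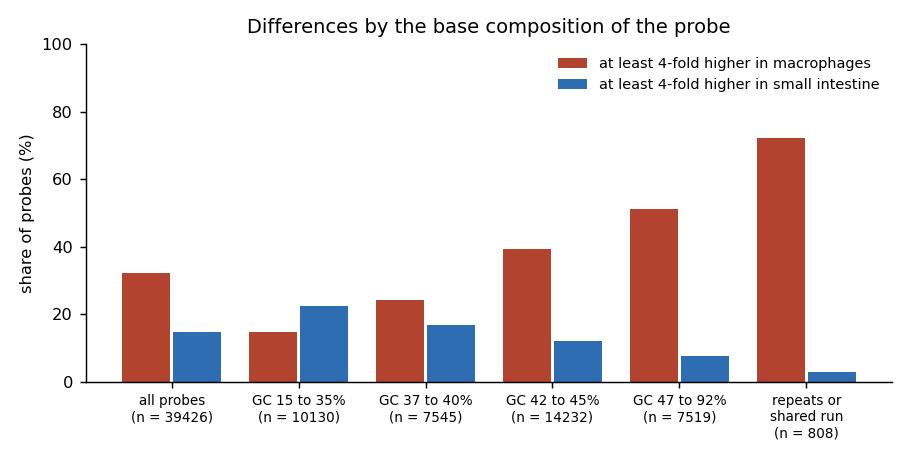
Share of probes at least 4-fold higher on the wild type macrophage arrays (red) or small intestine arrays (blue), for all probes, 4 classes of GC content and the 808 probes that hold a repeat or shared run of letters. The red bars rise with GC content from 14.6% to 51.0%, and reach 72.3% for probes with a repeat or shared run. Probes count whether or not they were well above background.

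The arrays of a tissue were alike and the tissues far apart. The mean correlation of an array with the others of its own tissue was 0.954 to 0.980, against 0.364 to 0.453 with the other tissue. The 75th percentile of signal, to which each array was set, was 922.4, 1645.5 and 2137.1 on the macrophage arrays and 3204.4, 2321.5 and 2763.2 on the small intestine arrays of animals 1 to 3, and 57.0% to 73.5% against 52.6% to 57.0% of probes were well above background. Each tissue was scanned on a day of its own and on slides of its own, so tissue, scan day and slide cannot be told apart. Of 20409 genes tested with limma (animal as a block, Benjamini-Hochberg adjustment, threshold 0.05), 16406 or 80.4% differed. Of these, 8423 (41.3% of genes tested) were higher on the macrophage arrays and 7983 (39.1%) on the small intestine arrays, and 32.6% and 22.2% of genes tested were also at least 4-fold apart. The groups did not overlap, with the macrophages higher, for 42.5% of genes and, with the intestine higher, for 40.8%. A count of called members therefore has to be read against a background of about these shares. With each array set to its median, which moved the median of all genes from 0.03 to -1.53, 34.0% of calls were higher on the macrophage arrays in place of 51.3%. With the percentile taken over probes detected on all 6 arrays, which moved it to 0.66, 61.4% were. With each array set to its median, 5988 of the 20409 genes were higher on the macrophage arrays and 11639 on the small intestine arrays. Of 12996 genes with a probe detected on all 6 arrays, 3936 were higher on the macrophage arrays and 5812 lower. Counts below from the median scale or from such probes have to be read against these. All levels and differences below are on the log2 scale, a level being log2 signal minus the 75th percentile of its array.

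Different probes of a gene often disagreed. Among 3162 called genes with several called probes, 1219 (38.6%) had probes called in opposite directions. Unless stated otherwise, the genes named below had 1 measured probe or probes that were not called in opposite directions. The same contrast in the animals labelled Irgm1-/- gave a call in the same direction for 94.0% of the genes higher on the macrophage arrays that were tested there and for 92.3% of those higher on the small intestine arrays. There 83.1% of genes tested differed, 42.4% higher on the macrophage arrays and 40.7% on the small intestine arrays.

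The macrophage label was checked first against genes that define the cell type. Of 22 measured genes of a macrophage identity list, 8 were higher on the macrophage arrays, 4 were higher on the small intestine arrays and 10 did not pass, with a median difference of 0.20 against 0.03 over all genes. Of all genes tested, 41.3% were higher on the macrophage arrays and 39.1% on the small intestine arrays. By the array's median as the scale, 5 members were higher and 13 lower, where 5988 and 11639 of all 20409 genes were. The list's direction thus depends on the scale. In the animals labelled Irgm1-/-, of 21 measured members 4 were higher and 12 lower, with a median of -0.73. Without animal 1, 9 were higher, 4 were lower and the median was 0.67. Without animal 2, 7 were higher, 6 were lower and the median was -0.31.

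Csf1r, the receptor that macrophages need for survival, was at 0.75, 2.81 and 2.54 on the macrophage arrays of animals 1 to 3 and at 2.95, 3.05 and 2.93 on the small intestine arrays. The macrophage level was low in animal 1 and near the intestinal level in animals 2 and 3, and the difference of -0.94 (SE 0.44, n = 3 animals, adjusted p = 0.0889) did not pass. The gene's other probes gave differences of 4.99 (SE 0.41) and 3.01 (SE 0.60), so its direction rests on the probe. With the mean of its probes the difference was 2.35, and without animal 3, where another probe had the highest mean, it was 4.64. Without animal 2 it was -1.29. The first probe differed by -2.19 in the animals labelled Irgm1-/- (adjusted p = 0.00046). Adgre1, which encodes the surface protein F4/80, lay at -1.71, -1.02 and -1.21 on the macrophage arrays and at -1.03, -1.42 and -0.83 on the small intestine arrays, and the groups overlapped (difference -0.22, SE 0.31, adjusted p = 0.544). The fractalkine receptor gene Cx3cr1 (-0.65, SE 0.45), the lysosomal marker Cd68 (-0.66, SE 0.31), the receptor for dying cells Mertk (-0.36, SE 0.30) and Aif1 (0.33, SE 0.49, and -1.23 by the array's median as the scale) did not pass either. Cd68 had a second measured probe, with a difference of 1.38 (SE 0.37).

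Further marker genes of macrophages, some of them shared with other myeloid cells, divided into both directions. Lyz2, the lysozyme of myeloid cells, was lower on the macrophage arrays (-1.37, -0.22 and -0.32 against 1.44, 1.94 and 2.27), by a difference of -2.52 (SE 0.28, adjusted p = 0.000225) with groups that did not overlap. The mannose receptor gene Mrc1 (-2.58, SE 0.53) and C1qc (-3.68, SE 0.57), a chain of complement C1q, were lower as well. The other C1q chains C1qa (-1.18, SE 0.58) and C1qb (0.82, SE 0.55) did not pass. Fcgr1, a high-affinity receptor for IgG, was higher: its level was -0.15, 0.26 and 0.07 on the macrophage arrays and -4.06, -3.58 and -3.18 on the small intestine arrays (difference 3.67, SE 0.28, adjusted p = 4.8e-05). Itgam, the CD11b chain of the complement receptor, was higher by 3.36 (SE 0.33) and its partner Itgb2 by 3.28 (SE 0.33), while Itgax, the CD11c chain, was lower (difference -2.33, SE 0.43). The signalling adaptor gene Tyrobp was higher by 1.97 (SE 0.40), the oxidase subunit gene Cybb by 2.57 (SE 0.39), and Spi1, which encodes the myeloid transcription factor PU.1, by 5.86 (SE 0.75). The scavenger receptor gene Cd163 was not well above background on any small intestine array and was at least 12.8-fold higher, and the sialic acid receptor gene Siglec1 at least 12.2-fold. These folds set the mean macrophage level against the lowest signal called well above background on each small intestine array. Cd14, the coreceptor for bacterial lipopolysaccharide, was higher by 0.86 (SE 0.27, adjusted p = 0.0236), and by the array's median as the scale its difference was -0.70.

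**Figure D2:**
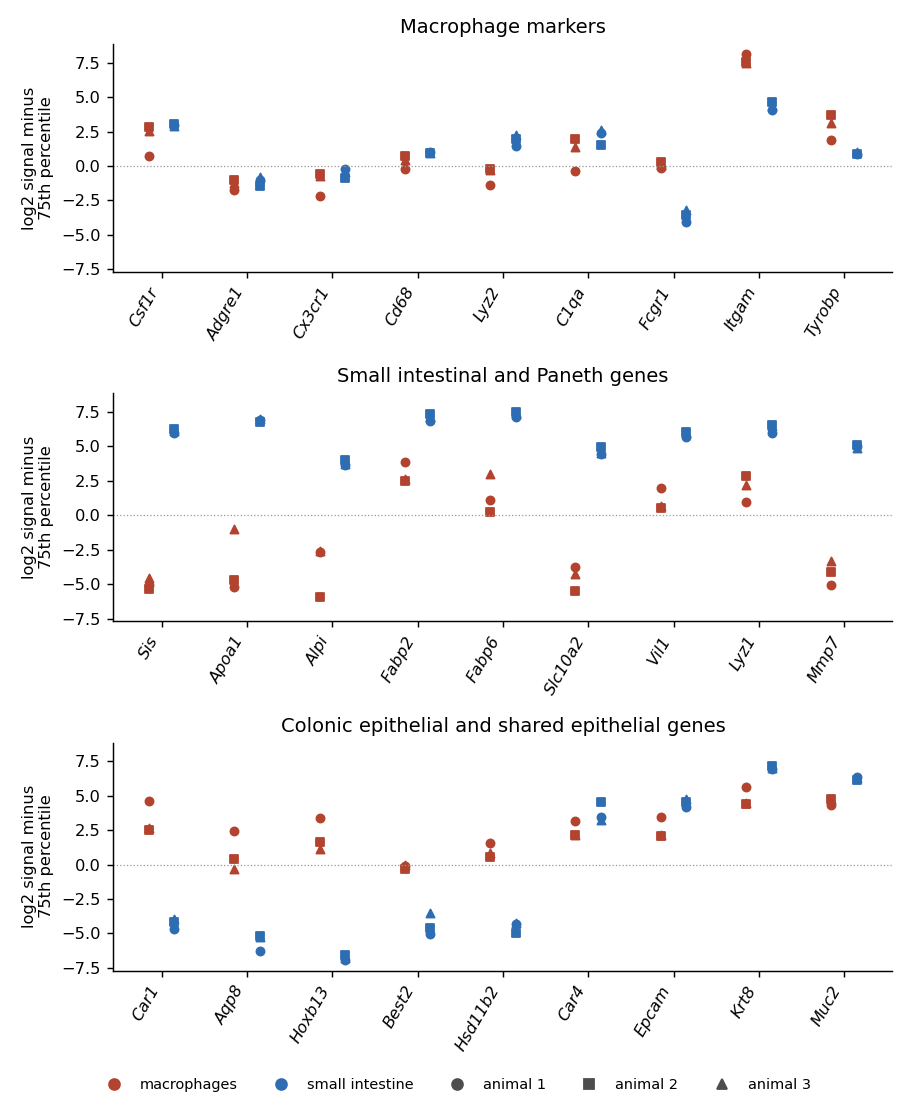
Levels (log2 signal minus the array's 75th percentile) of named genes on each wild type array, with macrophages in red, small intestine in blue and a marker shape for each animal. Adgre1 and Cx3cr1 overlap between the tissues, Csf1r and Cd68 lie lower on the macrophage arrays without passing the test, Sis and Slc10a2 are high only on the small intestine arrays, and Car1, Aqp8 and Hoxb13 only on the macrophage arrays.

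The macrophage array of animal 1 differed from the others in both directions. Its levels of Csf1r, C1qa (-0.37 against 1.93 and 1.39), Tyrobp (1.88 against 3.70 and 3.10) and Cx3cr1 (-2.16 against -0.61 and -0.74) were the lowest of the 3. Its levels of the epithelial genes Epcam (3.46 against 2.06 and 2.15) and Vil1 (1.97 against 0.56 and 0.69) were the highest. Against these, its levels of the myeloid genes Itgam (8.11 against 7.56 and 7.51) and Cd14 (2.06 against 1.37 and 1.08) were the highest too, and that of the epithelial gene Muc2 (4.30 against 4.78 and 4.75) the lowest. The Itgam levels come from its brightest probe. Its other measured probes had mean levels of -0.11 and -0.41 on the macrophage arrays. What part the state of this array has in any single difference was not tested.

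Of 16 measured cytokine genes, made by macrophages or epithelium, 10 were higher on the macrophage arrays and 2 lower. Over all genes tested the shares were 41.3% and 39.1%. A further 9 of the 25 listed genes were not tested, and the filter on dim probes can keep a gene through 1 tissue alone. Tnf, encoding tumour necrosis factor, was at -0.71, 0.86 and 0.18 against -3.80, -4.08 and -4.39 (difference 4.20, SE 0.41, adjusted p = 0.000131), and the groups did not overlap. Il1b was higher by 2.90 (SE 0.41), whereas Il18, an interleukin that epithelium also makes, was lower (difference -3.23, SE 0.53). Nlrp3, the sensor of an inflammasome, was at least 88.5-fold higher. The neutrophil attractant Cxcl1 was at least 117-fold higher, and the monocyte attractant Ccl2 was higher by 5.18 (SE 0.37). Among 24 chemokine genes, 8 were higher and 7 lower, and those lower included Ccl25 (-3.40, SE 0.35; its probes were called in opposite directions), which draws lymphocytes to the small intestine. Ccl28, which draws cells to mucosal surfaces, was at least 27.6-fold lower. Il10 was not tested, because none of its probes was well above background on every array of a tissue.

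Immediate early genes, which cells switch on within minutes of a stimulus or of handling, were listed together with heat shock genes. Of 21 measured members of this list, 14 were higher on the macrophage arrays, all at least 4-fold, with 1 lower and a median difference of 3.31. Of all genes tested, 41.3% were higher and 39.1% lower there. By the array's median as the scale, 12 members were higher and 7 lower, where 5988 and 11639 of all 20409 genes were. Fosb, a subunit of the AP-1 factor, was at 7.03, 7.12 and 6.67 on the macrophage arrays and at -1.54, -1.53 and -1.59 on the small intestine arrays, a difference of 8.49 (SE 0.26, adjusted p = 1.3e-05). Egr3 was at least 84.3-fold higher, and Atf3 (4.87, SE 0.31), Jun (4.64, SE 0.30), Egr1 (4.39, SE 0.28) and Fos (2.56, SE 0.26) were higher too. Jund was the member lower on these arrays (-1.31, SE 0.38). In the animals labelled Irgm1-/- 17 members were higher and 2 lower, with a median of 2.85.

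Interferon-induced genes, the class to which Irgm1 belongs, went mostly the other way: 21 of 35 were higher on the small intestine arrays, 5 on the macrophage arrays, with a median of -1.46. By the array's median as the scale 29 were higher on the small intestine arrays and 2 on the macrophage arrays. On that scale 11639 and 5988 of all 20409 genes were. B2m, the light chain of MHC class I, was at 2.10, 2.32 and 2.22 against 5.76, 5.96 and 5.59 (difference -3.56, SE 0.26). Irgm2 (-3.47, SE 0.34) and Igtp (-3.27, SE 0.39), which encode regulatory GTPases of the same family as Irgm1, were lower on the macrophage arrays, as was Irgm1 itself (-1.24, SE 0.31, adjusted p = 0.00939). Against most of the list, the effector GTPase genes Iigp1 (4.52, SE 0.38) and Tgtp1 (4.21, SE 0.30) were higher there. Mx1 was at least 5.61-fold lower.

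The genes of the absorptive epithelium were higher on the small intestine arrays almost throughout. Of 26 brush border genes 24 were higher on the small intestine arrays and 1 on the macrophage arrays, with a median of -5.83. Among the 17 with a probe detected on all 6 arrays these counts were 15 and 1, with a median of -4.2. Of 28 nutrient transporters 26 were higher on the small intestine arrays, with a median of -4.53, and of 23 genes of lipid absorption 20, with a median of -4.82. The filter on dim probes can keep a gene of these lists through the small intestine arrays alone. Sis, the sucrase-isomaltase of the brush border, was at 5.98, 6.27 and 6.12 on the small intestine arrays and at -5.09, -5.38 and -4.53 on the macrophage arrays, where it was well above background on none, so it was at least 983-fold lower. Apoa1, an apolipoprotein of lipid export, was at 6.91, 6.80 and 6.99 against -5.24, -4.70 and -1.02, with the level of animal 3 the highest on the macrophage arrays (difference -10.56, SE 0.77). Alpi, the intestinal alkaline phosphatase, was lower (difference -7.55, SE 0.73), and the sodium-glucose transporter gene Slc5a1 was lower too (difference -4.98, SE 0.31). Each list had 1 member higher on the macrophage arrays: Ace, encoding angiotensin-converting enzyme (2.58, SE 0.27), the calcium channel gene Trpv6 (at least 42.8-fold), and Cel (8.29, SE 0.57), a lipase that the pancreas secretes.

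Paneth cells, which secrete antimicrobial peptides at the base of small intestinal crypts, had all 12 measured genes at least 4-fold higher on the small intestine arrays, with a median of -7.12. A further 5 of the 17 listed genes were not tested. The 9 genes with a probe detected on all 6 arrays were all called higher on the small intestine arrays, with a median of -6.18. The others passed the filter on dim probes only through those arrays. The protease gene Mmp7 was at 5.00, 5.13 and 4.88 against -5.03, -4.12 and -3.35 (difference -9.17, SE 0.39). The defensin gene Defa21 differed by -11.78 (SE 0.66), though defensin genes are near-identical copies whose probes can share signal. Lyz1, the lysozyme of Paneth cells, was lower (difference -4.33, SE 0.34), and remained at 0.94, 2.84 and 2.23 on the macrophage arrays. Its sequence is close to that of Lyz2, so signal of the 2 genes may be shared. Enteroendocrine genes were higher on the small intestine arrays for 12 of 15 members and on the macrophage arrays for none, among them Sst (-6.31, SE 0.39) and Cck (-4.32, SE 0.28).

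Some genes that were high on the small intestine arrays are known from its far end. Slc10a2, the bile acid transporter of the ileum, was at 4.48, 4.94 and 4.54 on the arrays labelled duodenum and not well above background on the macrophage arrays, at least 356-fold lower there. Fabp6, the ileal bile acid-binding protein, was at 7.11, 7.52 and 7.33 against 1.13, 0.24 and 2.98 (difference -5.87, SE 0.54). Gata4, a transcription factor of the proximal small intestine, was at -1.76, -0.33 and -0.96 on the small intestine arrays and at least 6.98-fold lower on the macrophage arrays. Which segment each piece of intestine came from was not tested beyond these levels.

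**Figure D3:**
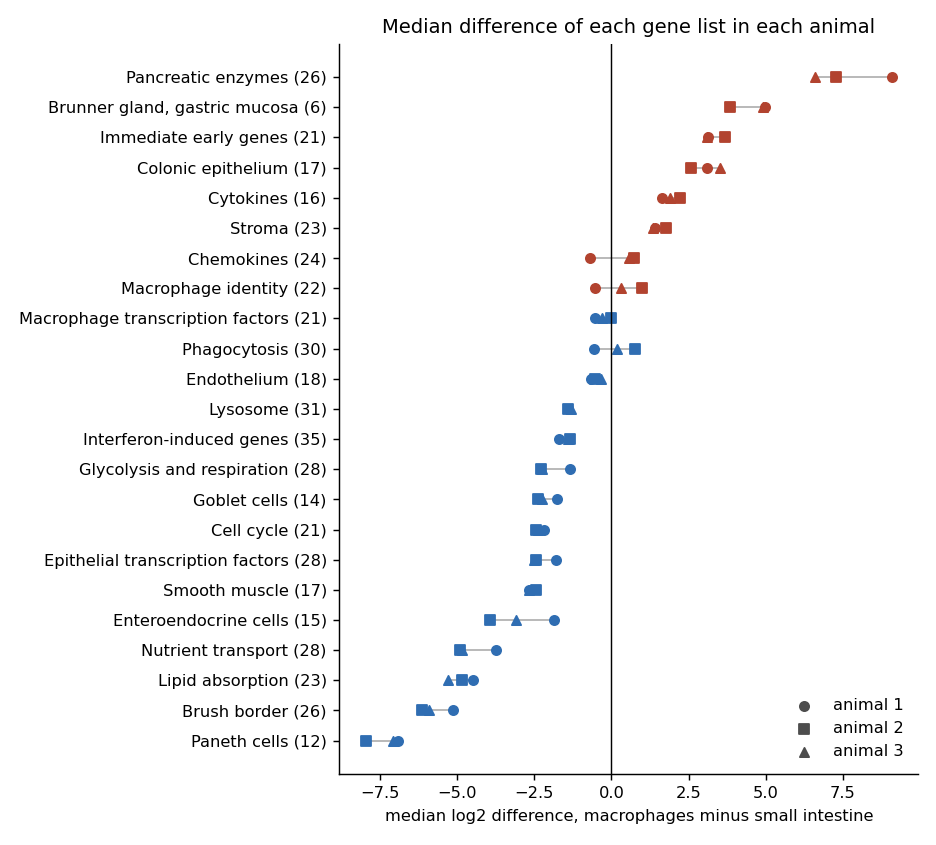
Median log2 difference (macrophages minus small intestine) of each gene list in each of 3 animals, with the number of genes tested in parentheses. The list of immediate early genes also holds heat shock genes. Lists of the absorptive and Paneth epithelium lie far to the left in every animal, macrophage lists lie near 0, and the pancreatic list lies far to the right, at 9.10, 7.29 and 6.60.

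Epithelial RNA was not absent from the macrophage arrays. Epcam, a surface protein of all gut epithelium, was well above background on every array and lower on the macrophage arrays (difference -1.92, SE 0.43, adjusted p = 0.00568). Keratin 8, encoded by Krt8, was at 5.64, 4.38 and 4.47 on the macrophage arrays and at 6.91, 7.18 and 7.01 on the small intestine arrays. Muc2, the mucin of goblet cells, was at 4.30, 4.78 and 4.75 against 6.34, 6.13 and 6.30. These genes were thus bright in both tissues, and lower on the macrophage arrays without overlap. Of 14 goblet genes, 12 were higher on the small intestine arrays and 2 on the macrophage arrays, against 39.1% and 41.3% of all genes tested.

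Genes of the colonic epithelium, in contrast, were higher on the macrophage arrays for 11 of 17 measured members, 3 were lower, and the median was 2.86. Many members passed the filter on dim probes only through the macrophage arrays. Of the 9 members with a probe detected on all 6 arrays, 4 were higher and 3 lower, with a median of 0.04. Of all 12996 genes with such a probe, 3936 were higher and 5812 lower. Car1, the carbonic anhydrase of colonocytes, was at 4.65, 2.52 and 2.64 on the macrophage arrays and at -4.71, -4.15 and -3.97 on the small intestine arrays (difference 7.55, SE 0.57, adjusted p = 4.6e-05), and its other probe differed by 10.91. The water channel gene Aqp8 was at least 51.0-fold higher, and Hsd11b2, which inactivates glucocorticoids in epithelium, was higher by 5.50 (SE 0.29). The goblet cell gene Retnlb (4.90, SE 0.53) and the anion channel gene Best2 (4.22, SE 0.35) followed. Slc26a3, the chloride exchanger of the colon, did not pass (-0.86, SE 0.61), though its other probe was called lower (-2.23, SE 0.49). Car4 was lower (-1.26, SE 0.43), and its other probe did not pass (0.06, SE 0.38). Members of this list passed in the animals labelled Irgm1-/- too, 12 higher and 4 lower. The part of colonic epithelial RNA in the other differences was not tested.

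Hox genes encode transcription factors whose paralogous groups mark the body axis from head (low numbers) to tail (high numbers). Whether position along the gut has a part in their differences was not tested. Of 10 measured genes of groups 9 to 13, 7 were higher on the macrophage arrays, 1 was lower and 2 did not pass. The 7 were well above background on no small intestine array and passed the filter only through the macrophage arrays, so their count is a description. Of the 8 Hox genes of any group with a probe detected on all 6 arrays, 1 was higher and 4 were lower. Of all 12996 genes with such a probe, 3936 were higher and 5812 lower. Of 9 genes of groups 5 to 8, 1 was higher and 5 were lower (median -1.08), and of 6 genes of groups 1 to 4, 2 were higher and 3 lower (median -0.83). Hoxb13 was at 3.35, 1.67 and 1.16 on the macrophage arrays and not well above background on the small intestine arrays, at least 120-fold higher. Hoxa13 was at least 63.7-fold, Hoxd9 at least 59.6-fold, Hoxa10 at least 24.7-fold and Hoxd11 at least 15.2-fold higher. Hoxc6 went the other way, at 0.59, 0.69 and 0.73 on the small intestine arrays against -5.40, -5.02 and -3.83 (difference -5.42, SE 0.36), and Hoxb7 was at least 19.2-fold lower on the macrophage arrays.

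**Figure D4:**
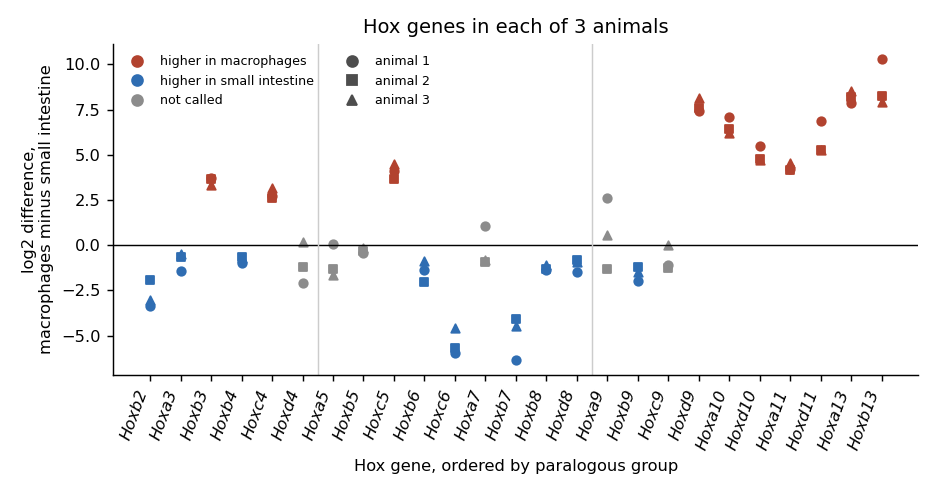
Log2 difference (macrophages minus small intestine) of 25 Hox genes in each of 3 animals, ordered by paralogous group, with vertical lines before groups 5 and 9. Hoxd9 and all measured genes of groups 10 to 13 are high on the macrophage arrays in every animal, while Hoxb7 and Hoxc6 are the lowest.

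Many of the largest differences toward the macrophages were in genes of the exocrine pancreas, which makes digestive enzymes. Of 26 measured pancreatic genes 23 were at least 4-fold higher on the macrophage arrays, against a background of 32.6% of genes, with a median of 7.86. Of the 12 with a probe detected on all 6 arrays, 9 were higher and 2 lower, against 3936 and 5812 of all 12996 genes with such a probe. The trypsinogen gene Prss2 was at 7.17, 5.57 and 4.99 on the macrophage arrays and at -7.08, -6.82 and -7.00 on the small intestine arrays, at least 1724-fold higher. Cpa1, a carboxypeptidase, was at least 1372-fold, the elastase gene Cela2a at least 1400.0-fold and the lipase gene Pnlip at least 561-fold higher. The amylase gene Amy2a5 was higher by 8.15 (SE 0.84). For each of these, animal 1 had the highest macrophage level and animal 3 the lowest. Trypsinogen and elastase genes are families of close copies, so their probes can share signal. The colipase gene Clps (0.54, SE 0.49) did not pass, with high levels in both tissues, and Pnliprp2 (-3.06, SE 0.82) was lower.

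Most pancreatic genes were at lower levels in the other animals, where 13 of 19 measured members were still higher on the macrophage arrays and 5 lower. On the macrophage arrays of the animals labelled Irgm1-/-, the median level of the 26 genes was -2.35, -2.19 and -1.59, against 6.28, 4.76 and 4.22 on the wild type ones. On the small intestine arrays it was -4.34, -3.60 and -3.63 against -3.53, -3.99 and -3.43. Prss2 was at -5.29, -5.33 and -3.96 on the former macrophage arrays. Sycn, a protein of pancreatic secretory granules, stood against this: its level was 5.24, 5.04 and 4.13 in the animals labelled Irgm1-/- and 6.89, 5.38 and 4.53 in wild type. The source of the pancreatic RNA was not tested.

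**Figure D5:**
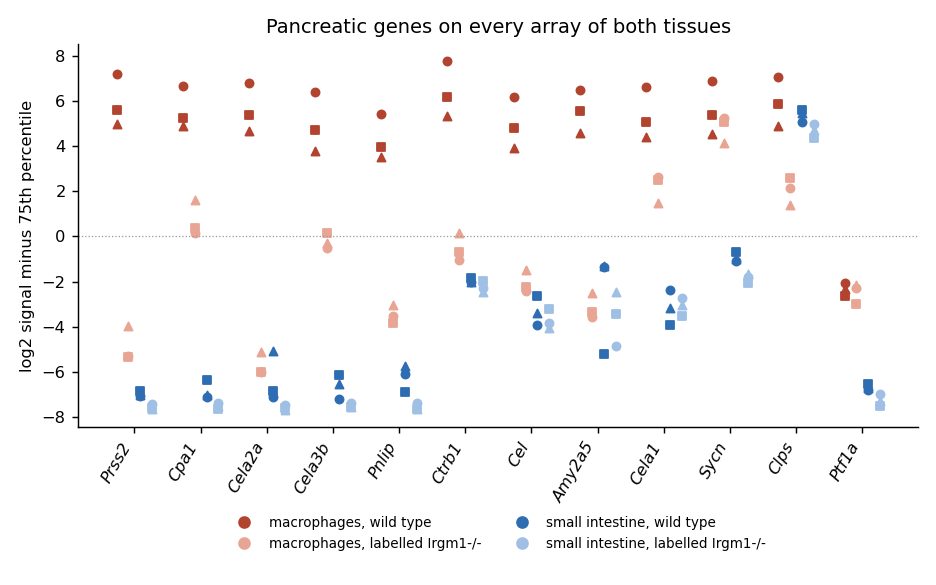
Levels (log2 signal minus the array's 75th percentile) of 12 pancreatic genes on the 12 arrays of both tissues, with wild type in dark and animals labelled Irgm1-/- in light colours. Prss2 and Cela2a lie above 4 on the wild type macrophage arrays and below -3 on all others, whereas Sycn is above 4 on all 6 macrophage arrays.

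Other cells of the gut wall differed as well. Their counts stand against the 41.3% and 39.1% of all genes higher on the macrophage and small intestine arrays. Of 17 smooth muscle genes 15 were higher on the small intestine arrays and 1 on the macrophage arrays, with a median of -2.65. The smooth muscle actin gene Acta2 was at 1.91, 1.64 and 2.14 on the macrophage arrays against 6.20, 6.27 and 6.40 (difference -4.39, SE 0.26). Stromal genes were higher on the macrophage arrays for 19 of 23 members, with a median of 1.42. By the array's median as the scale, 7 were higher, 6 were lower and the list's median was -0.14. On that scale 5988 of all 20409 genes were higher and 11639 lower. The collagen gene Col3a1 was higher by 2.09 (SE 0.27), and Col6a2 by 7.03 (SE 0.33), while Pdgfrb, a receptor of pericytes, was lower (-2.09, SE 0.27). In the animals labelled Irgm1-/- the stromal median was 0.04, with 7 members higher and 6 lower. Of all genes tested in those animals, 42.4% were higher on the macrophage arrays and 40.7% lower. Cell cycle genes were higher on the small intestine arrays for 18 of 21 members. Cyclin A2, encoded by Ccna2, was at least 106-fold lower on the macrophage arrays, and Cdkn1a, a brake on the cell cycle, was the member higher there (1.14, SE 0.34), though its difference was -0.42 by the array's median as the scale. Lgr5, which marks crypt stem cells, was at least 12.8-fold lower.

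Families with members known from epithelium and from macrophages gave a mixed picture. Among fatty acid-binding proteins, Fabp1 of enterocytes was at least 46.7-fold lower on the macrophage arrays and Fabp2 was lower (difference -4.09, SE 0.42), though still at 3.90, 2.52 and 2.64 there. Fabp4 (-2.10, SE 0.43) and Fabp5 (-3.39, SE 0.39), which macrophages and fat cells make, were lower too, and Fabp3 was higher (2.74, SE 0.27). Of the cholesterol acyltransferases, Soat1, the form of macrophages, was at least 13.4-fold higher, and Soat2, the form of enterocytes, was lower (-4.24, SE 0.35). Galectin 1, encoded by Lgals1, was higher (1.86, SE 0.29), and the intestinal galectin gene Lgals2 was lower, at -2.80, -3.49 and -0.81 against 6.57, 6.70 and 6.64. The other measured galectin genes, Lgals3 (-2.55, SE 0.32), Lgals4 (-1.07, SE 0.40) and Lgals9 (-1.58, SE 0.26), were lower too. The actin-bundling plastin of epithelium, Pls1, was lower (-3.63, SE 0.34), and that of leukocytes, Lcp1, did not pass (-0.19, SE 0.37). Villin, encoded by Vil1, was lower (difference -4.82, SE 0.41).

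Transcription factors of the epithelium were mostly higher on the small intestine arrays, 18 of 28 with 5 higher on the macrophage arrays. Hnf4a was at 4.95, 5.23 and 4.99 against 1.07, -0.15 and -0.72 (difference -4.99, SE 0.41), and Cdx2, a determinant of intestinal identity, differed by -4.25 (SE 0.31). The promoter windows of 3 genes named above are shown because letters bound by such factors or by PU.1 lie in them. They are the 250 bases before the annotated start, from RefSeq with build GRCm38.p6, on the strand of the gene. Letters for C/EBP, the MiT factors, HNF1, GATA and a longer PU.1 site were searched too and lie in none of the 3. The letters found (either strand) are in capitals: TTTATGG for CDX, CAAAGTCCA for HNF4, GAGGAA for PU.1 and TGCTGA for Maf.
Fabp1, chr6:71199629-71199878, plus strand: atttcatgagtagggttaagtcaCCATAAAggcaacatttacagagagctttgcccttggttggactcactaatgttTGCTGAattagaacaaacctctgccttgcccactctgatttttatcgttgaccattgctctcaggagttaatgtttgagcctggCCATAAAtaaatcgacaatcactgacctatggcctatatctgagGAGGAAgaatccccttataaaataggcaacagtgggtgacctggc
Alpi, chr1:87101607-87101856, minus strand: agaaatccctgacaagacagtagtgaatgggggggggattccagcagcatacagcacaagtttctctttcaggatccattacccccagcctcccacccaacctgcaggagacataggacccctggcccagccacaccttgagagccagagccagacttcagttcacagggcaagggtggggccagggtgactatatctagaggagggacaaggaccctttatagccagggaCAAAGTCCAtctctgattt
Itgam, chr7:128062390-128062639, plus strand: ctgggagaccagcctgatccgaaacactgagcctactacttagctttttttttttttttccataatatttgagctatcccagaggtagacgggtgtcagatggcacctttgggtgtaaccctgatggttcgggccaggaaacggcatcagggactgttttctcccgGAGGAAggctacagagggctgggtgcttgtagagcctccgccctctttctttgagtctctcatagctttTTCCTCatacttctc
The Fabp1 window holds the CDX letters 227 and 89, the PU.1 letters 45 and the Maf letters 173 bases before the start, the Alpi window holds the HNF4 letters 19 bases before it, and the Itgam window holds the PU.1 letters 84 and 15 bases before it. The share of windows with such letters was taken over all genes tested and over the genes at least 4-fold apart. Of 12660 tested genes with a window, 22.6% held GAGGAA, against 23.7% of those at least 4-fold higher on the macrophage arrays and 21.7% of those at least 4-fold higher on the small intestine arrays. The CDX letters were in 1.85%, 2.32% and 1.78% in the same order, and the Maf letters in 13.7%, 15.4% and 13.1%. The HNF4 letters were in 0.442%, 0.319% and 0.648%, which rest on 56, 11 and 20 genes. The longer PU.1 site GAGGAAGT was in 2.43%, 2.49% and 2.56%, and AGATAAG for GATA in 1.97%, 2.44% and 1.88%. TCACGTGA for the MiT factors was in 1.3%, 0.667% and 1.56%. TTGCGCAA for C/EBP was in 29, 4 and 11 genes, and the HNF1 letters were in 8, 3 and 3. These matches are a description of the letters and say nothing of binding.

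Genes outside the lists also stood far apart. Trim71, which encodes an RNA-binding protein of stem cells, was at 7.82, 7.65 and 7.63 on the macrophage arrays and well above background on no small intestine array, at least 5970-fold higher. Its probe holds none of the letters shown at the start. Has2, a hyaluronan synthase, was at 7.69, 7.57 and 7.60 against -5.16, -5.50 and -5.39, at least 5632-fold higher. Septin12 (11.60, SE 0.35) and Fam219aos (10.46, SE 0.63) were higher, and the vomeronasal receptor gene Vmn2r111 was at least 559-fold higher. Fam219aos varied on the small intestine arrays, at -6.41, -2.30 and -4.14. On the macrophage arrays of the animals labelled Irgm1-/- the mean level was 7.64 for Trim71 and 7.58 for Has2. Leaving out the probes with the letters left 8021 genes higher on the macrophage arrays and 8007 on the small intestine arrays, a choice made after their values were seen.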

How the data were processed

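RNA labelled as isolated colonic macrophages and as whole duodenum was measured on 1-colour Agilent arrays (design 026655, Cy5). Per the labels' protocols, 5 µg of total RNA was labelled per array. The deposited scanner files hold intensity values, background-subtracted and detrended by Agilent Feature Extraction 11.5.1.1, per the file headers, with flags per spot in other columns. The authors' series table holds linear intensity values with equal ranks within each tissue and was used only as an alternative. How it was normalized is not stated there.

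Each array's log2 deposited signal was set to its 75th percentile over non-control probes. Probes well above background on every array of at least 1 tissue were kept, and a gene was read from its kept probe with the highest mean. Names came from RefSeq (GRCm38.p6). Differences were tested with limma 3.58.1 in R 4.3.3 (lmFit and eBayes, animal as a block, Benjamini-Hochberg adjustment at 0.05). Same-numbered animals come from the file names and give both tissues. The deviations of the pairs correlated at 0.164, 0.0441 and 0.09. The p-values measure the spread over 3 animals, which limits the precision. The scripts were tested on simulated data of 20409 genes, with 50 genes changed at each of 4 sizes. At log2 differences of 1, 2, 3 and 4 they called 0, 0, 10 and 27 of the 50, with 0 false calls. Far fewer genes differed there than on the arrays, which makes the adjustment stricter, so these shares do not carry over.

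The comparison and its gene lists were chosen with earlier results of these data known. Named genes were the 20 largest differences in each direction, up to 6 called members per list and direction, members that go against their list, paralog families and a set of identity genes. The alternatives changed the background correction, scaling, filter, probe choice, block, slide, variance prior, values and animals. Salivary gland arrays were not used here.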

Additional observations from a re-analysis of the deposited data

Results flagged for a closer look

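The tissue difference of Cel, a pancreatic lipase gene, differed between the genotypes by the interaction term of a limma fit of 12 arrays (3 animals per genotype, Benjamini-Hochberg adjustment over all genes). It was 8.29 in wild type animals and 1.65 in those labelled Irgm1-/-, an interaction of -6.64 (adjusted p = 0.0239), and Cel was higher on the macrophage arrays in 3 of 3 wild type animals. Over all genes, 48 of 20404 passed this test. Among them were further pancreatic genes, Prss2, Prss1, Try4, Try5, Cela2a, Pnlip and Amy2a5, for which no size is given because they did not pass the filter on dim probes in the animals labelled Irgm1-/-. The wild type animals were all female and the others were 2 males and 1 female, so the part of sex was not tested.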

How the results depend on the processing

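Of 95 counts of genes recomputed under the alternatives, 88 stayed within 1.5 times their main value. The count at least 4-fold higher on the small intestine arrays, 4523, was 8964 with each array set to its median and 2920 with the percentile over probes detected on all 6 arrays. Without a filter on dim probes 14367 genes were higher on the macrophage arrays. With probes detected on all 6 arrays, where fewer genes were tested, 9748 genes changed, 3936 were higher on the macrophage arrays, and 2280 and 2892 were at least 4-fold higher on the macrophage and small intestine arrays. Leaving out an animal gave 15013 to 17364 changed genes, 8004 to 9870 higher on the macrophage arrays, 7009 to 7767 higher on the small intestine arrays, and 6724 to 8276 and 4459 to 4696 at least 4-fold apart. Pairing by animal mattered little: with no replicate block 16424 genes changed, and with a block by the mouse number of the titles, which does not follow the animals, 16153. A slide block together with the animal could not be fitted.

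By the array's median as the scale, the list medians of the interleukin 10 axis, of mast cells and eosinophils and of stroma turned to -0.637, -0.595 and -0.143, and the differences of Aif1, Cd14 and Cdkn1a to -1.23, -0.698 and -0.42. Quantile normalization gave -0.612 for mast cells and eosinophils. The endothelial median turned to 0.0542 with normexp, 0.397 with the percentile over detected probes, and 0.0594 both with the mean of all probes and without genes whose probes disagree. The mean of all probes gave 2.35 for Csf1r and 0.16 for Ccl25, and the difference of Csf1r ran from -1.29 to 4.64 without an animal, the higher value without animal 3. In the animals labelled Irgm1-/- the differences were 5.51 for Csf1r (from another probe than in wild type), -1.24 for C1qb, -0.727 for Aif1 and -2.64 for Clps. The causes were not tested. Of 2303 recomputed differences of named genes, 2246 stayed on the same side of the threshold, and kept their direction where either value passed it. A change of direction between values that did not pass was not counted. Alternatives that changed only the animal block or the variance prior leave the differences as they were by design, which raises this count.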

Other observations

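Brunner glands, the mucus glands of the duodenal wall, are marked by genes shared with the stomach. All 6 measured genes of that list were at least 4-fold higher on the macrophage arrays than on the arrays labelled duodenum. Their median difference was 4.75. Over all genes tested, 32.6% were at least 4-fold higher on the macrophage arrays. A further 5 of the 11 listed genes were not tested. The filter on dim probes can keep a gene through the macrophage arrays alone, so the count is a description. Which segment the pieces labelled duodenum came from was not tested by it. Of 31 lysosomal genes, 5 were higher on the macrophage arrays and 21 on the small intestine arrays. Of 24 genes of xenobiotic metabolism, 20 were higher on the small intestine arrays and 2 on the macrophage arrays. Of all genes tested, 39.1% were higher on the small intestine arrays and 41.3% on the macrophage arrays.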
